A study of Homo sapiens with 23 samples.

Results

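The immediate-early response genes FOS, FOSB, JUN, JUNB, EGR1, IER2, IER3, DUSP1, KLF6 and MYC were examined in mRNA-seq data from a chip, named iGLC, that joins a gut and a liver culture. The genes were found by symbol, each of the 10 was listed once among 60564 genes, and their values were described in every library. The platform links a chamber of Caco-2 cells with a chamber of HepG2 cells. Caco-2 is an established cell line from a human colorectal adenocarcinoma and is used as a model of the gut epithelium, and HepG2 is an established cell line from a human liver carcinoma and is used as a model of hepatocytes. Each line was kept alone (mono-culture) or with the other line connected through the channel (co-culture), and each culture was kept for 1 day without free fatty acids (control) or with 1 mM of a mixture of palmitic and oleic acids (FFAs). All groups of both lines were starved of serum before the treatment, and all cells were detached with trypsin and EDTA before RNA extraction. The study's methods also describe repeated changes of medium during the treatment, and the part of these in the levels was not tested. The 23 libraries comprised 11 of Caco-2 cells and 12 of HepG2 cells, with 3 replicates per group, apart from 2 for Caco-2 cells in co-culture without FFAs. Each line is a single tumour-derived line, so a difference between the lines is a difference between these lines and not between gut and liver.

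Immediate-early genes are transcribed within minutes of a stimulus such as serum, a growth factor, stress or a change of medium, because the factors that switch them on are already in the cell. Kinases of the MAPK pathways activate the serum response factor SRF with its ELK partners and the factor CREB at the promoters of these genes. FOS, FOSB, JUN and JUNB are subunits of the AP-1 transcription factor, EGR1 and KLF6 are zinc-finger transcription factors, and MYC is a transcription factor of growth and metabolism. DUSP1 is a phosphatase that switches MAPK kinases off again, IER2 is a nuclear protein, and IER3 takes part in the control of ERK signalling and survival. Most of their transcripts are short-lived, so their level in a cell follows recent events. MYC is also driven by other pathways in tumour lines.

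The upstream regions of FOS and of JUNB, EGR1, IER2 and DUSP1 are shown so that motifs known from immediate-early promoters can be seen. These 4 genes were chosen because their Pearson correlation with FOS passed across Caco-2 libraries, which did not hold by rank or without 2 libraries. The regions were not tested against the levels. The sequences are the 250 bases before the RefSeq start on GRCh38.p14, read 5′ to 3′ on the strand of the gene, at chr14:75278578-75278827 (FOS, plus strand), chr19:12791236-12791485 (JUNB, plus strand), chr5:138465229-138465478 (EGR1, plus strand), chr19:13150161-13150410 (IER2, plus strand) and chr5:172771196-172771445 (DUSP1, minus strand). Capitals mark the CArG box that SRF binds, the core TGACG (or its reverse complement CGTCA) of the cyclic AMP response element that CREB binds, and the TATA box TATAAA.
FOS: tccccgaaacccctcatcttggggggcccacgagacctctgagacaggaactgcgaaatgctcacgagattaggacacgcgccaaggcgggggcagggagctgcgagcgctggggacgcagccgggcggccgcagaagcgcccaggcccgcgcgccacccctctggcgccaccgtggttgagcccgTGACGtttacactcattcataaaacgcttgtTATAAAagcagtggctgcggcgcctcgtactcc
JUNB: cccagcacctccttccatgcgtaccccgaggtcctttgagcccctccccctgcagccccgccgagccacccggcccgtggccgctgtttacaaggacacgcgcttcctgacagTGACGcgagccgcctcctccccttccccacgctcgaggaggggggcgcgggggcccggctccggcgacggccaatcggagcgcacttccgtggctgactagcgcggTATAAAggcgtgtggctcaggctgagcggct
EGR1: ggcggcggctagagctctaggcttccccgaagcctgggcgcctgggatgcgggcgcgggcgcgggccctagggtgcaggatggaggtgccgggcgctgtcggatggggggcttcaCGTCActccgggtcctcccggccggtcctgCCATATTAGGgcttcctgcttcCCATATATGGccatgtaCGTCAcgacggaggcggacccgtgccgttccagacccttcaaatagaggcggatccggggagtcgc
IER2: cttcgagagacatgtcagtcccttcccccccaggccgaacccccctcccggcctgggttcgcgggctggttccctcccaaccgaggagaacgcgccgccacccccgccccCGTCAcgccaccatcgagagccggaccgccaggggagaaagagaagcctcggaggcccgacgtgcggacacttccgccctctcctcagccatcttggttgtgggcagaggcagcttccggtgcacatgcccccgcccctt
DUSP1: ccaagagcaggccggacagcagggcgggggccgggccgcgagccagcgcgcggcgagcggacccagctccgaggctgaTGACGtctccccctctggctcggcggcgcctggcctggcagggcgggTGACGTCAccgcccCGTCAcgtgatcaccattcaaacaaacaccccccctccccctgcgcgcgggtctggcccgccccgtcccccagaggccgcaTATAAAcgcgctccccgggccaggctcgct

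Promoter sequences were matched for 8 of the 10 genes (FOS, FOSB, JUN, JUNB, EGR1, IER2, DUSP1 and KLF6), and 7 motifs were searched on both strands in windows of 300 bases, from 250 bases before to 50 bases after each start. The TGACG core was in 7 of the 8 promoters, all but that of KLF6, and in 24.6% of 35116 promoters of the same length. TATAAA was in 4 of 8 (FOS, FOSB, JUNB and DUSP1) and in 11.5% of all promoters. The CArG box was in 1 of 8, with 2 matches in the EGR1 promoter, and in 1.29% of all promoters. The full element TGACGTCA, which contains the TGACG core on either strand, was in the DUSP1 promoter alone and in 1.85% of all promoters. The EGR motif GCGNGGGCG was in the promoters of EGR1 and KLF6 (9.43% of all promoters), the E-box CACGTG, which MYC and its partner MAX bind, in those of DUSP1 and KLF6 (7.26%), and the AP-1 motif TGANTCA in 0 of 8 (7.71%). In the DUSP1 promoter the E-box shares letters with a TGACG core. A match describes letters in these windows and not binding. Sequence farther than 250 bases before the start was not searched, so a missing match does not mean that a gene lacks the motif.

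Values are TPM, the share of a library's transcripts that come from a gene after correction for length, so levels can be compared between genes while the depth of a library is unknown. The number of genes above 0 TPM ranged from 19259 to 23689. The 10 hepatocyte marker genes summed to 48566 to 71098 TPM in HepG2 libraries and to 11280 to 21196 TPM in Caco-2 libraries, and the 10 intestinal marker genes to 156 to 246 TPM in HepG2 and 878 to 1187 TPM in Caco-2 libraries. ALB (serum albumin) was between 20460 and 33860 TPM in HepG2 cells and between 320.9 and 768.5 TPM in Caco-2 cells. APOA1 was the 1 hepatocyte marker of 10 with the higher average in Caco-2 cells (medians of 12030 TPM there and 9628 TPM in HepG2 cells, with overlap). CDX2, a transcription factor of intestinal cells, was between 60.4 and 136 TPM in Caco-2 cells and at most 0.73 TPM in HepG2 cells. Of the intestinal markers, CDX1 and FABP2 were listed at 0 in most Caco-2 libraries (7 and 9 of 11). FABP2 was higher in HepG2 cells, with 0.63 to 2.91 TPM against at most 0.03 TPM in Caco-2 cells. The marker sums of mono-cultured and co-cultured libraries overlapped in Caco-2 cells for both lists. In HepG2 cells the co-cultured libraries had lower sums with overlap for both lists, 156 to 212 TPM against 203 to 246 TPM for intestinal and 48566 to 64958 TPM against 61169 to 71098 TPM for hepatocyte markers. In bulk RNA, a change in the share of cells that express a gene and a change in the RNA per cell cannot be told apart.

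All 10 genes were above 0 TPM in every library. FOS (ENSG00000170345, chromosome 14, 75278826 to 75282230) was at 195, 203 and 124 TPM in mono-cultured control Caco-2 cells (replicates 1 to 3), at 517, 172 and 155 TPM with FFAs, at 202 and 358 TPM in co-cultured control cells, and at 165, 928 and 315 TPM in co-cultured cells with FFAs. In HepG2 cells FOS was at 9.48, 25.2 and 36.5 TPM in mono-cultured control, at 6.61, 61.8 and 29.1 TPM with FFAs, at 7.61, 25.7 and 36.6 TPM in co-cultured control, and at 8.72, 42.4 and 32.8 TPM in co-culture with FFAs. The lowest Caco-2 library (124 TPM) was above the highest HepG2 library (61.8 TPM), and within HepG2 cells replicate 1 was the lowest of every group. FOSB (ENSG00000125740, chromosome 19, 45467995 to 45475179), its close relative, was low in both lines, with 1.32 to 11.3 TPM in Caco-2 cells (median 3.51) and 0.28 to 2.77 TPM in HepG2 cells (median 0.93). FOSB was above 5 TPM in only 3 libraries, all of co-cultured Caco-2 cells, namely control replicate 2 and FFAs replicates 2 and 3.

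**Figure D1:**
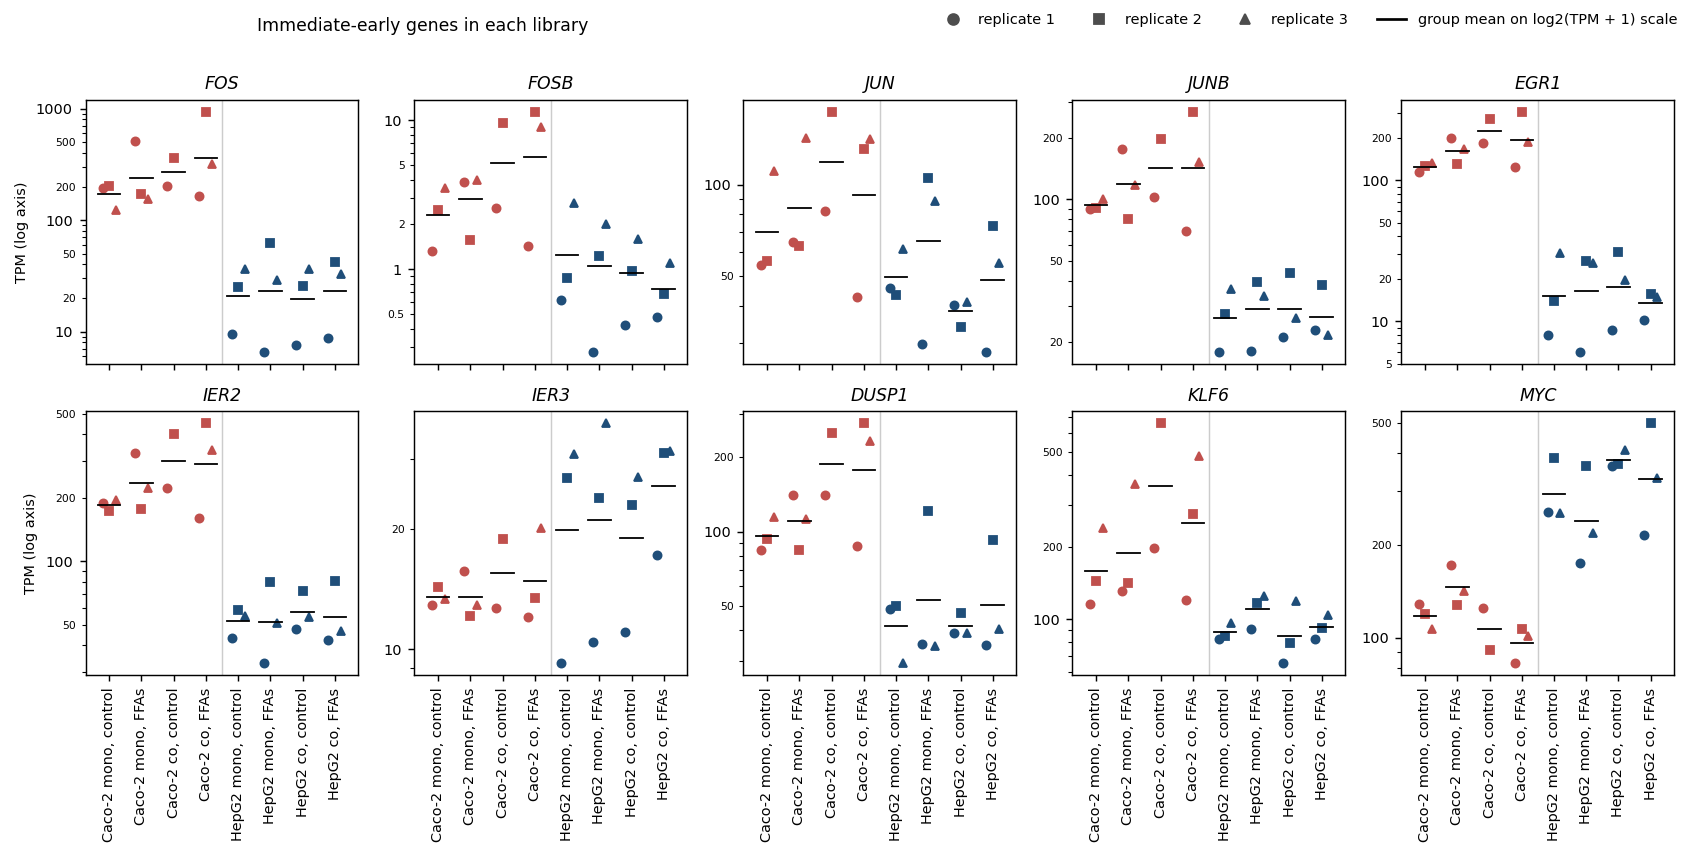
TPM of each gene (log axis, a separate scale for each panel) in every library of the 8 groups, Caco-2 in red and HepG2 in blue, with the replicate number as the symbol and the group mean on the log2(TPM + 1) scale as a bar. FOS, JUNB, EGR1 and IER2 lay higher in all Caco-2 libraries than in all HepG2 libraries, MYC lay lower, and replicate 1 of HepG2 cells was the lowest of its group for FOS in all 4 groups.

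The other AP-1 subunits were higher than FOSB in every library. JUN (ENSG00000177606, chromosome 1, 58776845 to 58784048, minus strand) ranged from 42.7 to 173 TPM in Caco-2 cells (median 82.0) and from 28.2 to 105 TPM in HepG2 cells (median 44.6), and the lines overlapped. JUNB (ENSG00000171223, chromosome 19, 12791486 to 12793315) ranged from 70.3 to 268 TPM in Caco-2 and from 17.9 to 43.8 TPM in HepG2 cells without overlap. The JUNB locus overlaps HOOK2 on the opposite strand and the FOSB locus overlaps ERCC1. The kit does not mark strand, so reads of overlapping genes could not be separated by strand.

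EGR1 (ENSG00000120738, chromosome 5, 138465479 to 138469303) was at 114, 127 and 132 TPM in mono-cultured control Caco-2 cells, at 198, 129 and 166 TPM with FFAs, at 184 and 270 TPM in co-cultured control, and at 124, 303 and 187 TPM in co-culture with FFAs. In HepG2 cells EGR1 was at 8.03, 13.9 and 30.2 TPM in mono-cultured control, at 6.07, 26.8 and 25.6 TPM with FFAs, at 8.61, 30.9 and 19.6 TPM in co-cultured control, and at 10.1, 15.7 and 14.9 TPM in co-culture with FFAs. Both co-cultured control Caco-2 libraries were above the 3 mono-cultured control libraries, whereas the co-cultured libraries with FFAs lay on both sides of those without co-culture. KLF6 (ENSG00000067082, chromosome 10, 3775996 to 3785281, minus strand) was at 116, 144 and 239 TPM in mono-cultured control Caco-2 cells, at 131, 142 and 366 TPM with FFAs, at 198 and 656 TPM in co-cultured control, and at 120, 276 and 481 TPM in co-culture with FFAs. Replicate 3 had the most KLF6 in each Caco-2 group of 3, and the highest value of all came from co-cultured control replicate 2. In HepG2 cells KLF6 stayed between 65.8 and 124 TPM, the narrowest range of the 10 genes in that line (1.89-fold from lowest to highest).

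IER2 (ENSG00000160888, chromosome 19, 13150411 to 13154911) was between 160 and 450 TPM in Caco-2 cells (median 223) and between 33.0 and 80.2 TPM in HepG2 cells (median 52.8), without overlap. IER3 (ENSG00000137331, chromosome 6, 30743199 to 30744548, minus strand) had the narrowest range of the 10 in Caco-2 cells, from 12.1 to 20.2 TPM, and ranged from 9.25 to 36.8 TPM in HepG2 cells. DUSP1 (ENSG00000120129, chromosome 5, 172768096 to 172771195, minus strand) was at 84.0, 93.3 and 114 TPM in mono-cultured control Caco-2 cells, at 141, 84.4 and 112 TPM with FFAs, at 141 and 252 TPM in co-cultured control, and at 87.2, 275 and 233 TPM in co-culture with FFAs. The 3 highest Caco-2 values of DUSP1 came from co-cultured libraries, whereas co-cultured FFAs replicate 1 lay among the mono-cultured libraries. In HepG2 cells DUSP1 had a median of 39.5 TPM and reached 121 and 92.6 TPM in replicate 2 of the FFAs groups in mono-culture and co-culture. IER2, IER3 and DUSP1 each overlap a long non-coding RNA gene on the opposite strand.

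MYC (ENSG00000136997), which overlaps the long non-coding RNA gene CASC11, had the opposite order between the lines. In the same order of replicates it was at 129, 120 and 107 TPM in mono-cultured control Caco-2 cells, at 172, 128 and 142 TPM with FFAs, at 125 and 91.4 TPM in co-cultured control, and at 83.0, 107 and 101 TPM in co-culture with FFAs. In HepG2 cells MYC was at 258, 384 and 254 TPM in mono-cultured control, at 175, 363 and 219 TPM with FFAs, at 361, 367 and 408 TPM in co-cultured control, and at 215, 499 and 332 TPM in co-culture with FFAs. Every HepG2 library was above every Caco-2 library, and in Caco-2 cells with FFAs the 3 co-cultured libraries were below the 3 mono-cultured libraries. When the 8 groups were ordered by mean TPM, neighbouring groups overlapped in their libraries at each of 7 steps for FOSB, IER3, DUSP1 and KLF6. For FOS, JUN, JUNB, EGR1, IER2 and MYC they overlapped at 6 of 7 steps.

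The lines were compared to ask how far the measured levels of these genes differ between the cell lines. These are levels after the cells were detached with trypsin and EDTA, and the part of handling in them was not tested. Averaged over the 4 groups of each line, 8 genes were higher in Caco-2 cells and 2 were lower, each with an adjusted p under 0.05 (limma, Benjamini-Hochberg over 16495 genes). FOS was higher by 3.48 ± 0.41 (SE) on the log2(TPM + 1) scale, 11.1-fold, with an adjusted p of 1.64e-07. EGR1 was higher by 3.38 ± 0.26 (10.4-fold, adjusted p = 3.12e-10). IER2 was higher by 2.19 (4.56-fold), JUNB by 2.11 (4.31-fold), DUSP1 by 1.55 (2.92-fold), FOSB and KLF6 by 1.28 (2.43-fold each) and JUN by 0.84 (1.79-fold, adjusted p = 0.00568). MYC differed by -1.40 ± 0.13, a ratio of 0.379, with an adjusted p of 1e-08, and IER3 by -0.54 ± 0.22 (adjusted p = 0.0302). The lines differed in most genes. Of all genes tested, 79.0% passed this threshold, 49.8% higher and 29.2% lower in Caco-2 cells, so a call between these lines is what most genes showed. The median difference was 1.42 over the 10 genes and 0.236 over all genes. Fold changes here are on the log2(TPM + 1) scale, which understates the change of FOSB.

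In mono-cultured control cells alone, 5 of the 10 genes were higher in Caco-2 cells (FOS by 2.97, EGR1 by 2.96, IER2 by 1.82, JUNB by 1.80 on the log2 scale, and DUSP1 2.29-fold) and MYC was lower, with a ratio of 0.405. FOSB, JUN, KLF6 and IER3 did not pass (differences of 0.56, 0.49, 0.84 and -0.53, adjusted p = 0.374, 0.41, 0.121 and 0.292). KLF6 passed with the replicate number as a block (adjusted p = 0.0237) and in a fit of only these groups (adjusted p = 0.0353). Here 62.4% of all genes passed, 39.0% higher and 23.4% lower. The DUSP1 call was lost without mono-cultured control replicate 2 or 3 of Caco-2 cells or without replicate 3 of HepG2 cells (adjusted p = 0.0576, 0.0897 and 0.12). IER3 passed in this comparison when replicate 1 of the mono-cultured control HepG2 cells was left out (a difference of -1.04, adjusted p = 0.0354). Over all groups, the IER3 call was lost when any of 9 libraries was left out singly, namely Caco-2 replicate 1 of either co-cultured group and HepG2 replicates 2 and 3 of mono-cultured control and of both co-cultured groups and replicate 3 of mono-cultured FFAs (adjusted p between 0.0507 and 0.0857). Scaling moved the reference of this comparison. The median of all genes between the lines was 0.236 in TPM as deposited, 0.0493 after median-of-ratios scaling and -0.00364 after quantile normalization, and the share of higher genes among those called fell from 63.1% to 52.5% and 50%. In the average over the 4 groups, all 10 genes kept their direction and their call under both scalings, with FOS at 3.25 and 3.29 and MYC at -1.63 and -1.54. In mono-cultured control cells the DUSP1 call was lost under both (adjusted p = 0.059 and 0.0707).

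**Figure D2:**
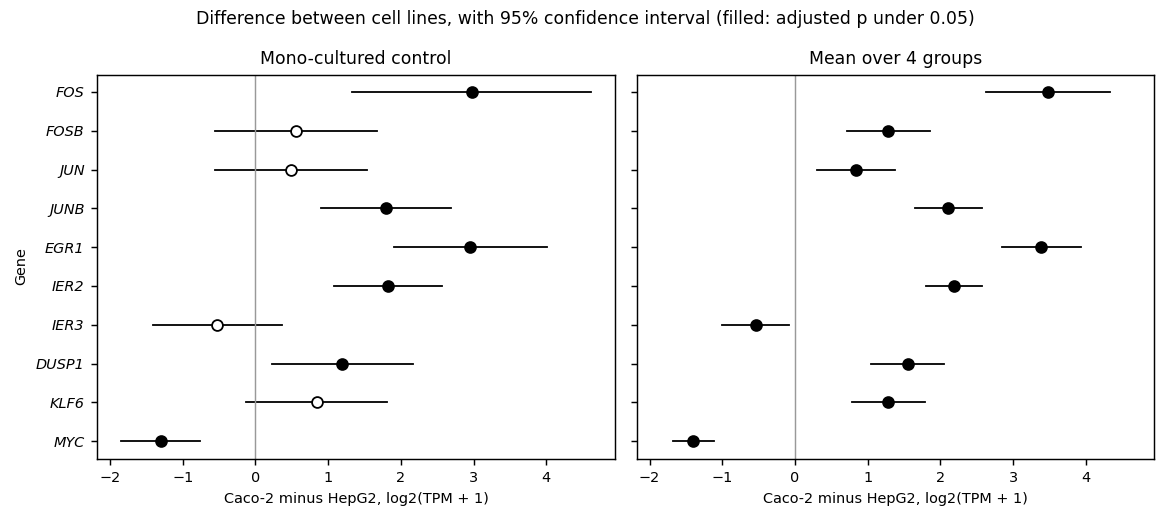
Difference of each gene between Caco-2 and HepG2 cells in log2(TPM + 1), in mono-cultured control cells (left) and averaged over the 4 groups of each line (right), with 95% confidence intervals from limma. Filled points had an adjusted p under 0.05. FOS and EGR1 differed most (3.48 and 3.38 in the average), and IER3 and MYC lay below 0.

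The libraries of the lines did not overlap for 5 genes. Every Caco-2 library was above every HepG2 library for FOS, JUNB, EGR1 and IER2, as it was for 28.6% of all genes, and below for MYC, as it was for 14.1% of all genes. Replicate 1 of HepG2 cells stood apart for FOS, with 6.61 to 9.48 TPM in its 4 libraries, so the comparison was repeated without these 4 libraries. FOS was then higher in Caco-2 cells by 2.81 (adjusted p = 9.02e-07), EGR1 by 2.95 and JUN by 0.60 (adjusted p = 0.0421), IER3 differed by -0.95, and all 10 genes passed.

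Co-culture was compared with mono-culture to ask whether the other cell type changes these genes. In Caco-2 cells 9 of the 10 genes were higher on average in co-culture, and 0 of 10 passed the adjusted threshold. Across the Caco-2 libraries all but MYC had an r of 0.718 to 0.976 to the mean of the 10 genes, which includes the gene itself. Pearson r with FOS alone was lower for several of them, at 0.245 for KLF6, 0.319 for JUN and 0.421 for IER3, and reached 0.887 for JUNB. All 10 genes were read in the same libraries, so their directions are not separate observations. Averaged over both treatments, FOSB differed by 0.82, DUSP1 by 0.82 ± 0.28 (1.77-fold), KLF6 by 0.79, FOS by 0.63, EGR1 by 0.54 ± 0.20 (1.46-fold), IER2 by 0.50, JUN by 0.46, JUNB by 0.43 and IER3 by 0.16, whereas MYC differed by -0.37 ± 0.11. The median was 0.52, and that of all 15081 genes tested was 0.0276. The smallest adjusted p was 0.329 (MYC), and 0.0% of all genes passed. Without adjustment, 3 of 10 had a p under 0.05 (DUSP1, EGR1 and MYC), as did 10.5% of all genes. Each of the 10 kept its direction in all 11 fits that left out 1 library and under both other scalings. The higher levels were not in every co-cultured library. In co-cultured FFAs replicate 1 the sum of the 10 genes was 866 TPM, the lowest of the 11 Caco-2 libraries. Without co-cultured control replicate 2, KLF6 differed by 0.36, FOSB by 0.43, JUN and JUNB by 0.19, IER3 by 0.021, IER2 by 0.29, FOS by 0.42, DUSP1 by 0.61, EGR1 by 0.40 and MYC by -0.25. That library also had the most genes above 0 TPM of all (23689), and the part of this in the values was not tested.

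Within control cells the largest of these with an unadjusted p under 0.05 were DUSP1 (0.96, 95% confidence interval 0.0419 to 1.88) and EGR1 (0.84, 0.173 to 1.51), both with an adjusted p of 0.867. Of all genes 0.0199% passed here, all of them higher, and 5.43% had an unadjusted p under 0.05. Without co-cultured control replicate 2 they were 0.54 and 0.57. Within FFAs-treated cells MYC had the smallest p of the 10 genes, a difference of -0.59 (95% confidence interval -0.921 to -0.268) with an adjusted p of 0.737, where 6.09% of all genes had an unadjusted p under 0.05. None of the 10 genes separated all co-cultured from all mono-cultured Caco-2 libraries, and 1.38% of all genes did. In HepG2 cells 4 of 10 genes were higher in co-culture, with a median of -0.0374, and 0 of 10 passed or had an unadjusted p under 0.05 (0.0561% and 12.5% of all genes). JUN differed by -0.39 and MYC by 0.41 ± 0.22 (95% confidence interval -0.0617 to 0.879, adjusted p = 0.462), and the others lay between these values. By treatment, 0 of 10 passed in control or FFAs-treated HepG2 cells, where 7.53% and 5.63% of all genes had an unadjusted p under 0.05. None of the 10 separated the cultures, and 1.35% of all genes did.

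The difference between the lines in the response to co-culture was tested in the fit of all 8 groups. It was positive, that is more toward higher levels in Caco-2 cells, for 9 of 10 genes and negative for MYC, and 0 of 10 passed (0.533% of all genes passed). MYC had the smallest p, with a difference of -0.78 ± 0.27 (95% confidence interval -1.34 to -0.212, adjusted p = 0.176), the only one of the 10 with an unadjusted p under 0.05 (14.6% of all genes). FOSB differed by 1.05 and KLF6 by 0.94, with adjusted p of 0.388 and 0.376.

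**Figure D3:**
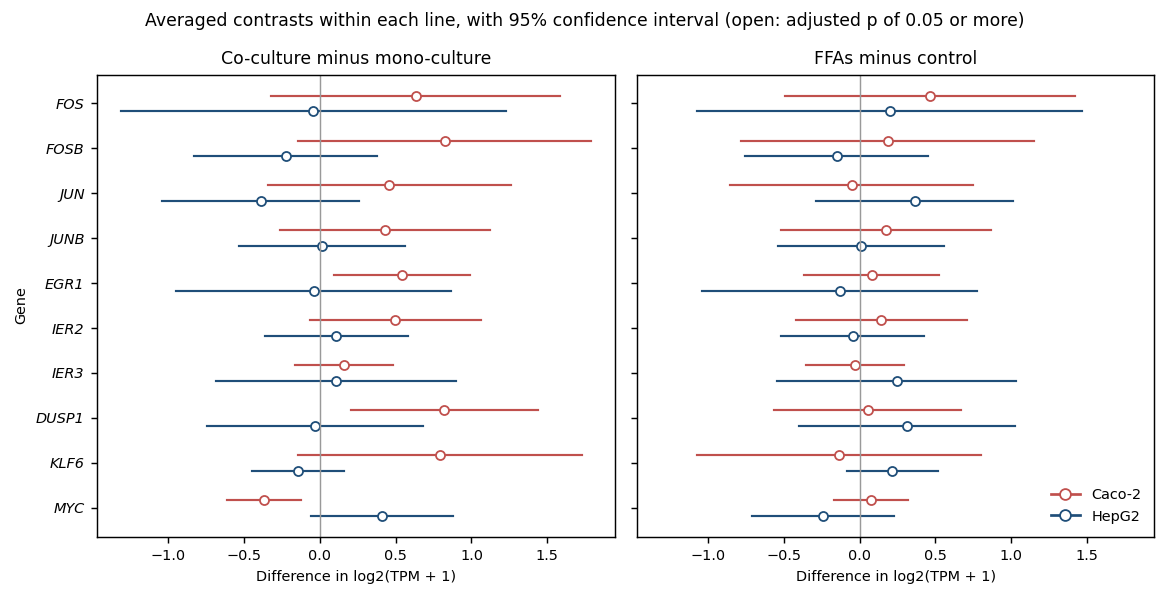
Averaged difference between co-culture and mono-culture (left) and between FFAs and control (right) for each gene in log2(TPM + 1), Caco-2 in red and HepG2 in blue, with 95% confidence intervals from limma. All points are open because no adjusted p was under 0.05. For co-culture 9 of 10 red points lay above 0, and for FFAs both colours lay on both sides of 0.

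FFAs were compared with control to ask whether these genes differ after 1 day of treatment, and the lipid content of these cells was not part of the comparison. With limma, 0 of the 10 genes passed in either line, in either culture or in the average, and 0 had an unadjusted p under 0.05 in these comparisons. Averaged over both cultures, the largest difference in Caco-2 cells was that of FOS, 0.47 with a 95% confidence interval of -0.489 to 1.42, followed by FOSB with 0.19 and JUNB with 0.17, and KLF6 had the lowest, -0.13. In HepG2 cells JUN (0.36), DUSP1 (0.31) and IER3 (0.25) had the highest differences and MYC the lowest (-0.24, 95% confidence interval -0.711 to 0.23). The interval of FOS in HepG2 cells was the widest, from -1.07 to 1.47. For MYC in Caco-2 cells the interval was narrower, from -0.167 to 0.323. In the averaged comparison 0.0% of all genes passed in either line, and the share with an unadjusted p under 0.05 was 3.99% for Caco-2 and 3.49% for HepG2. The lowest and highest libraries of control and FFAs overlapped for all 10 genes, whereas 0.424% of all genes in Caco-2 and 0.0982% in HepG2 cells did not overlap.

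By culture, all 10 genes were higher with FFAs in mono-cultured Caco-2 cells (median 0.28) in TPM as deposited and 9 of 10 under both other scalings, and 3 of 10 were higher in co-cultured Caco-2 cells under all 3 (median -0.0717). For FOS in mono-cultured cells, FFAs replicate 1 (517 TPM) was above all controls, while the other FFAs replicates (172 and 155 TPM) lay within the range of the controls. In mono-cultured Caco-2 cells 2.61% of all genes had an unadjusted p under 0.05, and in co-cultured Caco-2 cells 2.83% did and 0.0199% passed, all of them lower. The difference between the effects of FFAs in the cultures was negative for all 10 genes in Caco-2 cells, and 0 of 10 passed in either line (unadjusted p under 0.05 for 1.94% of all genes in Caco-2 and 1.16% in HepG2 cells). As for co-culture, most of these directions are not separate observations. In HepG2 cells 7 of 10 genes were higher with FFAs in mono-culture and 5 of 10 in co-culture, where 2.24% and 1.84% of all genes had an unadjusted p under 0.05. Between the lines the effect of FFAs differed for 0 of 10 genes (0.0182% of all genes, and 2.99% without adjustment). The study selected genes by an analysis of variance (p under 0.05) together with a log2 fold change of 0.263 or more between any pair of samples. These criteria were applied here as a one-way analysis across the 4 groups, with unadjusted p and the gap taken between group means. By them 0 of 10 genes were selected in either line, and 3.08% of 31100 genes in Caco-2 cells and 3.56% of 29942 genes in HepG2 cells were. MYC in Caco-2 cells met the criteria without co-cultured control replicate 1 or 2 or mono-cultured FFAs replicate 2, as did DUSP1 without co-cultured FFAs replicate 1 and, in HepG2 cells, KLF6 without co-cultured control replicate 3.

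The spread between replicates was wide for most of these genes. The pooled SD within groups of FOS was 0.90 in Caco-2 and 1.21 in HepG2 cells on the log2 scale. The median SD of genes that averaged 10 TPM or more was 0.16 in Caco-2 cells (9176 genes) and 0.20 in HepG2 cells (8545 genes), and only 0.392% and 0.398% of these genes had a larger SD than FOS. In Caco-2 cells KLF6 (0.88), JUN (0.75), JUNB (0.65), DUSP1 (0.57), IER2 (0.53) and EGR1 (0.41) followed, and the share of genes with a larger SD ran from 0.425% for KLF6 to 3.69% for EGR1. In HepG2 cells EGR1 (0.86), IER3 (0.74) and DUSP1 (0.67) followed FOS, exceeded by 0.924%, 1.48% and 2.07% of the genes. IER3 and MYC in Caco-2 cells (0.27 and 0.21) and KLF6 in HepG2 cells (0.27) were closest to the median gene, with 14.7%, 28.4% and 29.8% of genes more variable. FOSB had an SD of 0.89 in Caco-2 and 0.52 in HepG2 cells at means below 10 TPM. The SD covers both the cells and the handling of each library.

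**Figure D4:**
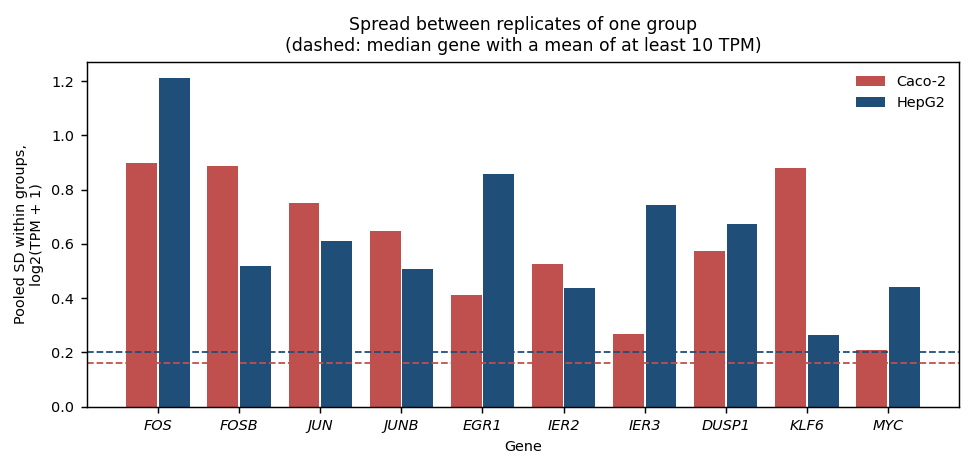
Pooled SD of log2(TPM + 1) within the 4 groups of each line for each gene, Caco-2 in red and HepG2 in blue (bars start at 0), with the median SD of genes that averaged 10 TPM or more as dashed lines (0.16 in Caco-2 and 0.20 in HepG2 cells). FOS had the highest bar in each line, and MYC in Caco-2 and KLF6 in HepG2 cells were near the dashed lines.

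In HepG2 cells the spread followed the replicate number. Replicate 1 was the lowest library in all 4 groups for FOS, FOSB, EGR1, IER2, IER3 and KLF6, and in 3 of 4 groups for JUNB and MYC. Replicate 2 was the highest in all 4 groups for IER2 and DUSP1, and replicate 3 for FOSB, IER3 and KLF6. This order was counted for the 10 genes only, so it is not shown to be particular to them. Deviations from group means over all genes tested also correlated between same-numbered HepG2 libraries (median r of 0.304). The sum of the 10 genes was 406 to 602 TPM in the replicate 1 libraries, 716 to 964 TPM in replicate 2 and 633 to 772 TPM in replicate 3. In Caco-2 cells the high libraries were mono-cultured FFAs replicate 1, co-cultured control replicate 2 and co-cultured FFAs replicates 2 and 3, where the sum was 1746, 2429, 2763 and 1978 TPM, and it was between 866 and 1441 TPM in the other libraries. KLF6 and JUN were highest in replicate 3 of each Caco-2 group of 3. What the replicate number stands for in the experiment is not given in the sources used here, and a test of the number as a term is given with the closing observations.

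**Figure D5:**
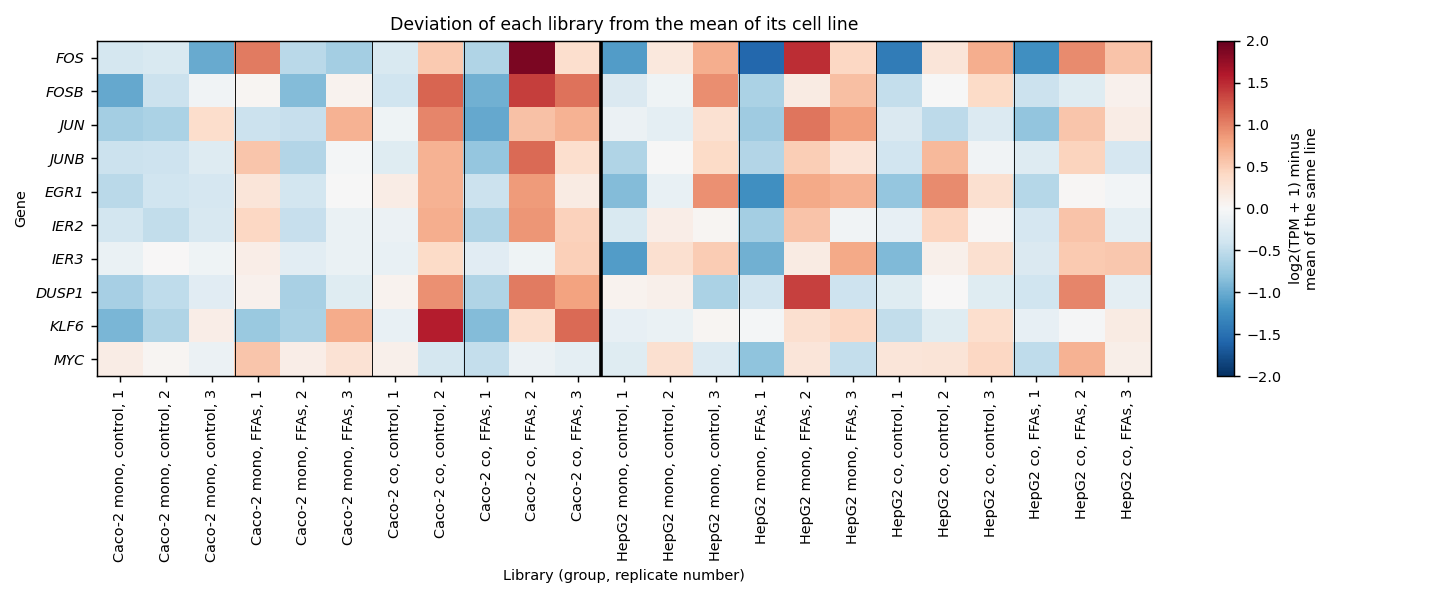
Heat map of log2(TPM + 1) of each gene in each library minus the mean of the same line (colour scale from -2 to 2, red above the mean), with libraries ordered by group and replicate number and a thick line between Caco-2 (left) and HepG2 (right). The first library of each HepG2 group is blue for FOS, and the columns of co-cultured control replicate 2 and co-cultured FFAs replicate 2 of Caco-2 cells are red for most genes.

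Of the other 9 genes, 4 had a Pearson correlation with FOS that passed across the Caco-2 libraries. Over 11 libraries, the Pearson r with FOS in log2(TPM + 1) was 0.887 for JUNB, 0.87 for IER2, 0.826 for EGR1 and 0.762 for DUSP1, with permutation p of 0.00054, 0.00074, 0.00206 and 0.00682 (two-sided, 100000 permutations). Adjusted over the 18 relations of both lines these were 0.00666, 0.00666, 0.0124 and 0.0307. FOSB had an r of 0.707 (adjusted permutation p = 0.0504), IER3 0.421, JUN 0.319, KLF6 0.245 and MYC 0.0626. Spearman's rho was 0.709, 0.682, 0.691 and 0.682 for JUNB, IER2, EGR1 and DUSP1, each with an adjusted permutation p of 0.116, so that 0 of 18 relations passed by rank. Without the 2 libraries farthest from the median of FOS, r was 0.752, 0.822, 0.731 and 0.789 for these 4 genes, and 0 of 18 passed (adjusted permutation p = 0.1 each). IER3 then had the highest r (0.852, adjusted permutation p = 0.1), and FOSB had 0.688 and KLF6 0.597, so these 4 genes did not stand apart from the others. The calls were thus lost without these 2 libraries, while r stayed above 0.7. Leaving them out also lowers the number of libraries and narrows the range of FOS, so it cannot show that the correlations rested on them. The libraries share the 4 groups of the design, which is part of these values.

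In HepG2 cells replicate 1 formed a separate cluster by FOS, and r is given over the 8 libraries of replicates 2 and 3 only. JUN and DUSP1 had the highest r with FOS (0.687 each, exact permutation p = 0.054 and 0.0625, adjusted 0.161 each), IER2 had 0.481 and KLF6 0.465, and IER3 was the only one below 0 (-0.156). None of 9 passed, and without the 2 farthest libraries r ranged from -0.571 (EGR1) to 0.455 (MYC). Leaving out replicate 1 by its FOS level narrows the range of FOS and leaves fewer libraries. The lack of calls therefore cannot show that these genes are unrelated to FOS.

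The genes whose pattern was most like the mean of the 10 standardised genes across the 11 Caco-2 libraries were ZC3H4 (r = 0.964), RAP1A (0.962), TSC22D1 (0.942), CCN2 (0.936) and ASTN2 (0.933). CCN2, which encodes a secreted matricellular protein and is itself an early response gene, ranged from 42.2 to 133 TPM, and TSC22D1 from 83.8 to 189 TPM. Of the 10 genes themselves, IER2 (0.976), JUNB (0.962), FOSB (0.961) and DUSP1 (0.956) were closest to the mean and MYC did not follow it (-0.0285). Across the 12 HepG2 libraries they were CFL2 (0.911), PPP6R3 (0.861), AC002094.1 (0.859), SENP5 (0.85) and THAP6 (0.847), and FOS was closest to the mean (0.978). The 12 libraries include those of replicate 1, which lay apart by FOS (6.61 to 9.48 TPM, against 25.2 TPM or more in the others). The HepG2 values of r therefore include this gap, and no r to the mean without replicate 1 is given. Each of the 10 genes is also part of the mean it was compared with. The values of r in both lines are descriptions over few libraries.

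The remaining immediate-early genes of the pathway were read from lists. Of 14 other immediate-early transcription factors tested in Caco-2 cells, 13 were higher in co-culture on average (median 0.39, 0 called). KLF10 (0.40, adjusted p = 0.446) and KLF4 (0.39, adjusted p = 0.454) had the smallest p. Of 32 effector and feedback genes, 30 were higher (median 0.40, 0 called, 12 with an unadjusted p under 0.05). In this comparison 10.5% of all genes had an unadjusted p under 0.05, and the median of all genes was 0.0276. The genes were read in the same libraries, so directions within a list are not separate observations. HBEGF, a ligand of the EGF receptor, differed by 0.83 ± 0.21 and the kinase PLK2 by 0.91 ± 0.26, both with an adjusted p of 0.308. In HepG2 cells 6 of 9 factors (median 0.12) and 17 of 29 effectors (median 0.041) were higher in co-culture, and 0 were called. KLF10 (0.29) and FOSL1 (0.42) in co-culture had the smallest p of the factors. Of the effectors these were CCN2 with FFAs (-0.45, adjusted p = 1) and PPP1R15A, a phosphatase subunit of the stress response, in co-culture (0.34, adjusted p = 0.383). Between the lines, 9 of 14 factors were higher in Caco-2 cells and 1 was lower, and 19 and 10 of 32 effectors, against 49.8% and 29.2% of all genes.

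Of 23 upstream kinases and SRF, ELK and CREB factors tested in Caco-2 cells 9 were higher in co-culture (median -0.0164, 0 called), with MAPK8, a stress-activated kinase, at 0.43 (adjusted p = 0.379). RPS6KA3, a kinase downstream of ERK, differed by 0.23 with FFAs (adjusted p = 0.99). In HepG2 cells 17 of 24 were higher in co-culture (median 0.0494, 0 called), and MAPK3, which encodes a MAP kinase, was at -0.25 (adjusted p = 0.442). Among the MYC family and partners 7 of 11 were higher in co-culture in Caco-2 cells (MLX -0.30, MXI1 0.25) and 5 of 9 in HepG2 cells (MAX 0.23, MXD4 -0.42), with 0 called in either. Of 10 heat shock genes, which mark another stress response, 4 were higher in co-culture in Caco-2 cells (HSPD1 -0.22, BAG3 0.16) and 5 in HepG2 cells (HSPH1 0.32), with 0 called. With FFAs 9 of 10 heat shock genes were higher in HepG2 cells (median 0.24, 0 called, 2 with an unadjusted p under 0.05), among them HSPA1A with 0.65 (adjusted p = 1). There 3.49% of all genes had an unadjusted p under 0.05, and the median of all genes was 0.00794. Of the line markers, SI (0.70) and KRT20 (-0.44) among the intestinal and FGB (1.15) and SPP1 (1.78) among the hepatocyte genes had the smallest p in Caco-2 cells in co-culture, and VIL1 (-0.29), CDH17 (0.46), APOA1 (-0.46) and FGB (-0.28) in HepG2 cells, with adjusted p of 0.128 or more. Hepatocyte markers were higher in co-cultured Caco-2 cells for 8 of 10 genes (median 0.16), beside the 9 of 10 immediate-early genes, and their part in that result was not tested. In the difference between lines in co-culture, 1 of the 10 hepatocyte markers passed, FGB, with 1.42 (adjusted p = 0.0231).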

How the data were processed

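mRNA-seq libraries were made from total RNA by SMART-Seq v4 cDNA amplification of polyadenylated transcripts. The authors removed reads of rRNA, tRNA and the mitochondrial genome with Bowtie2 2.1.0, aligned what was left (STAR 2.7.1a, GRCh38, annotation of Ensembl 98), and deposited a table of TPM per library, calculated with RSEM 1.3.0, without a filter on genes. The tables hold no counts, so depth, counting error and detection limits are unknown, and tools for counts were not used. The labels give a small amount of serum in the medium during treatment, whereas the study's methods describe serum-free medium.

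Values were analysed as log2(TPM + 1). The moderated test of limma 3.58.1 with trend (R 4.3.3) was run in a fit of the 4 groups of a line, or of all 8 groups for comparisons between lines. Genes averaging 1 TPM or more in any group entered, p-values were adjusted over all of them (Benjamini-Hochberg), and the threshold was 0.05. All 10 genes passed this filter in each fit. Differences of FFAs or culture are averaged with equal weight. A one-way analysis of variance followed the thresholds of the study, and unadjusted p and group means were choices made here. Correlations used two-sided permutation tests (Python 3.11.15, numpy 2.4.6, scipy 1.17.1), exact for 8 libraries. The relation to FOS was planned over all 12 HepG2 libraries and was restricted to replicates 2 and 3 after the values had been seen, since FOS in replicate 1 lay apart. The study's methods describe independent experiments for the mRNA-seq, but the labels do not tie libraries to them, so p-values measure the spread between these libraries, part of which may be technical. The fits were also run on simulated data with the spread of the deposited values. For the group comparisons these were drawn independently for each library, without a deviation shared by replicate number.

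The genes and gene lists were chosen with earlier results of these data known. From each other list, the 2 genes with the smallest p in an averaged contrast of a line are named (for the heat shock, kinase, MYC and marker lists too), and from all genes the 5 most like the mean of the 10 genes. A kinase that this rule names is not reported here. Coordinates come from GENCODE 44 on GRCh38, and promoter sequences from RefSeq. Alternatives were a pseudocount of 0.1, other filters, median-of-ratios scaling, quantile normalization, no trend, only the groups compared, a replicate block and leaving out each library. Leaving out HepG2 replicate 1 and the block without co-cultured control Caco-2 replicate 2 were added after seeing the data.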

Additional observations from a re-analysis of the deposited data

How the results depend on the processing

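Under every alternative run, 0 of the 10 genes passed in any comparison within a line or between the lines' responses with limma, and the averages between lines kept 8 higher and 2 lower except where the loss of the IER3 call is given (no filter on low values, adjusted p = 0.0647, and single libraries left out, -0.668 to -0.443). In mono-cultured control cells DUSP1 lost its call without a filter (adjusted p = 0.0739), after median-of-ratios scaling (1.00, 0.059) and after quantile normalization (0.98, 0.0707), KLF6 gained one (0.84) in a fit of only these groups and with the replicate block, and leaving out a library gave 0.955 to 1.33 for DUSP1 and -1.04 to -0.221 for IER3. The analysis of variance selected 0 to 1 of the 10 genes in either line when a library was left out. JUNB with FFAs in HepG2 cells turned to -0.00329 after median-of-ratios scaling. Without HepG2 replicate 1, differences near 0 turned sign in HepG2 cells (co-culture: DUSP1 0.0316, IER3 -0.0687, JUNB -0.119; FFAs: IER2 0.0666, JUNB -0.021), and the genes called were 0 for co-culture in HepG2 cells and 1 and 2 for the differences between lines in FFAs and co-culture. 0 of the 4 relations with FOS in Caco-2 cells passed without the 2 farthest libraries. The cause of these changes was not tested.

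Leaving out 1 library at a time turned differences that had not passed. For FFAs in Caco-2 cells the ranges were KLF6 -0.563 to 0.298, DUSP1 -0.154 to 0.308, EGR1 -0.0853 to 0.236, FOSB -0.206 to 0.579, MYC -0.035 to 0.191, IER3 -0.165 to 0.107, IER2 -0.0687 to 0.355, JUNB -0.0618 to 0.425 and JUN -0.319 to 0.225. For FFAs in HepG2 cells they were EGR1 -0.365 to 0.194, FOSB -0.288 to 0.0349, IER3 -0.0105 to 0.484, IER2 -0.202 to 0.109, FOS -0.142 to 0.619 and JUNB -0.124 to 0.169. For co-culture in HepG2 cells they were DUSP1 -0.248 to 0.262, EGR1 -0.365 to 0.197, IER3 -0.151 to 0.3, IER2 -0.0464 to 0.265, FOS -0.463 to 0.298 and JUNB -0.15 to 0.127, and for the difference between lines in co-culture IER3 -0.143 to 0.308.

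The replicate numbers were used as a replicate block in another fit. Deviations from the group means correlated over 0.1 in 15 of 18 same-numbered pairs of HepG2 and 7 of 15 of Caco-2 libraries (medians 0.304 and 0.088, against -0.226 and -0.118 for pairs of different numbers). Not every pair was over 0.1 and the labels tie the numbers to nothing shared, so the fit without the block was kept as the main one. Co-cultured control replicate 2 of Caco-2 cells correlated with replicate 3 libraries (0.18 to 0.284) and not with replicate 2 libraries (-0.0926 to -0.00753), which bears on all Caco-2 values of the block. The block called 60 genes for co-culture in Caco-2 cells (against 0), 492 in HepG2 cells (against 8) and 344 for its difference between lines (against 88), 5 and 6 in control cells of Caco-2 and HepG2 cells and 1 in FFAs-treated HepG2 cells, and the analysis of variance selected 1661 genes in HepG2 cells (against 1066). It turned DUSP1 with FFAs in Caco-2 cells to -0.00187 and called none of the 10 genes within a line. The block without co-cultured control replicate 2 of Caco-2 cells called 4 genes each for FFAs, co-culture and their interaction, 7 for FFAs in co-culture, 9 for co-culture in control cells and 14 for the difference between lines in FFAs, with IER3 at 0.0837 and MYC at -0.0106 for FFAs in Caco-2 cells.

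Counts over all genes were small and unstable within lines. In Caco-2 cells, for FFAs in mono-culture, FFAs in co-culture, co-culture in control, co-culture with FFAs, both averages (FFAs, co-culture) and the interaction in this order, the main counts were 0, 3, 3, 0, 0, 0 and 0, without a filter 2, 11, 11, 2, 7, 7 and 10, without the trend 2, 5, 5, 2, 7, 8 and 7, and the ranges over libraries left out 0 to 1, 1 to 18, 2 to 15, 0 to 2, 0 to 11, 0 to 11 and 0 to 10. FFAs in co-culture and co-culture in control gave 0 each with a pseudocount of 0.1 or at least 5 TPM, and in a fit of only the groups compared 1 and 0, with 1 for FFAs in mono-culture. In HepG2 cells co-culture on average called 22 genes at 5 TPM, 4 after quantile normalization and without the trend, 1 without a filter and 0 to 15 with a library left out. FFAs in mono-culture, FFAs on average, co-culture in control and the interaction each called 1 without a filter, co-culture in control called 1 in a fit of its groups, and FFAs in mono-culture and co-culture in control or with FFAs each called 0 to 1 with a library left out. Between lines, FFAs called 9 genes without a filter, 1 at 5 TPM and 3 to 16 with a library left out, and co-culture 31 to 255. The analysis of variance selected 501 and 635 genes at 5 TPM and 9 and 1 after Benjamini-Hochberg adjustment in Caco-2 and HepG2 cells.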

Other observations

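The replicate number was added as a term to the fit of each line after the pattern in HepG2 cells had been seen, so the result describes these libraries. With limma's F test, 9 of the 10 immediate-early genes passed in HepG2 cells, all but JUN (adjusted p = 0.147), beside 16.4% of 14255 genes. FOS differed by 2.04 between replicates 2 and 1 and by 1.94 between replicates 3 and 1 on the log2 scale (adjusted p = 0.00105), IER3 by 1.09 and 1.35 (adjusted p = 0.00065), EGR1 by 1.25 and 1.33, IER2 by 0.80 and 0.32, and MYC by 0.71 and 0.27. DUSP1 differed by 0.86 between replicates 2 and 1 and by -0.13 between replicates 3 and 1. The averaged differences of FOS in that line were 0.20 for FFAs and -0.044 for co-culture.

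In Caco-2 cells, where co-cultured control replicate 2 resembled the replicate 3 libraries more than those of its own number, KLF6 passed (1.65 between replicates 3 and 1, adjusted p = 0.0488, beside 0.603% of 15081 genes), and JUN had an adjusted p of 0.0746. Without co-cultured control replicate 2, 0 of the 10 genes passed by limma's F test (0.0796% of all genes), KLF6 had an adjusted p of 0.0951 and JUN 0.204, and both had an unadjusted p under 0.05. The summed level of the 10 heat shock genes was highest among HepG2 libraries in replicate 1 of both FFAs groups in HepG2 cells (6165 and 6543 TPM), where FOS was at 6.61 and 8.72 TPM, whereas it was 4031 and 3741 TPM in replicate 1 of the mono-cultured and co-cultured control groups, where FOS was at 9.48 and 7.61 TPM.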
